A study of Mus musculus with 20 samples.

Results

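Ptgs1, Cxcl15, Slc15a5, Kcnj16, Kcnj10 and Clca1 are 6 of the 37561 genes shared by the deposited tables, and they were chosen by their values in these libraries. Ptgs1, Cxcl15, Slc15a5 and Kcnj16 were selected on a high ratio of HPRT knockdown over control across the days, Clca1 was selected on its steep rise within the knockdown line, and Kcnj10 was added because its product partners that of Kcnj16 in potassium channels. The ratios of the first 4 genes and of Clca1 are therefore a description with no test, as is the slope of Clca1 in the knockdown line. Tested were the ratio of Kcnj10 and its slope, the slopes of Ptgs1 and Kcnj10 within the control line, and the slopes of the genes other than Clca1 within the knockdown line. All 6 genes passed the filter on low values, a typical log2 level of 4 or more over the tables, which 13608 genes met. The tables cover both lines, so a gene that is low in the control line could pass through the knockdown libraries; Cxcl15, Slc15a5, Kcnj16 and Clca1 had control medians of 3, 2, 9 and 12 reads.

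RNA-seq was done on spherical neural masses made from ESD3 cells while they differentiated toward dopaminergic neurons. ESD3 is a mouse embryonic stem cell line (strain 129s2/SvPas) that was kept on feeder layers of mouse embryo fibroblasts. The control line carried a short hairpin RNA against luciferase and the HPRT knockdown line one against HPRT, a purine salvage enzyme; the labels name a retrovirus as the carrier and the methods a lentiviral vector with puromycin selection. The number of cultures behind each line is not given. Each line gave 1 library a day from day 0 to day 4 and then 1 at each of days 6, 8, 10, 12 and 14. The RNA was pooled at each time point, so that no day had a replicate. Errors are therefore standard deviations over 9 days, and days of the same line are not independent replicates. Day 6, which the study set aside as discrepant, is given beside the tests and not in them.

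The 6 genes serve different functions. Ptgs1 encodes cyclooxygenase 1, the constitutive enzyme that opens prostaglandin synthesis from arachidonic acid, and Cxcl15 encodes lungkine, a chemokine of the CXC class known from mouse lung epithelium. Slc15a5 belongs to the family of proton-coupled peptide transporters, and Clca1 to a family of secreted or membrane-bound regulators of calcium-activated chloride channels. Kcnj10 and Kcnj16 encode the inwardly rectifying potassium channels Kir4.1 and Kir5.1; Kir4.1 forms channels by itself or together with Kir5.1, Kir5.1 by itself gives little current in most cells, and in brain Kir4.1 is known for potassium uptake by astrocytes and oligodendrocytes.

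In the mouse assembly NCBIM37 (mm9), Ptgs1 (Gene ID 19224) lies on chromosome 2 from 36085946 to 36107792 on the plus strand, in 11 exonic blocks. Cxcl15 (Gene ID 20309) lies on chromosome 5 from 91223560 to 91232093 on the plus strand, and Slc15a5 (Gene ID 277898) on chromosome 6 from 137932107 to 138028437 on the minus strand. Kcnj16 (Gene ID 16517) lies on chromosome 11 from 110829347 to 110889282 on the plus strand, 38196 bases before Kcnj2, another Kir channel gene. Kcnj10 (Gene ID 16513) lies on chromosome 1 from 174271341 to 174304216 on the plus strand, 11947 bases after Kcnj9, whose product is a subunit of G protein-gated Kir channels. Clca1 of the files has Gene ID 12722, on chromosome 3 from 144392641 to 144423941 on the minus strand. RefSeq now calls that gene Clca3a1, and it is not the mucus-cell gene that carries the name Clca1 today, which is Gene ID 23844 and stands in the files as Clca3. No exon of the 6 genes overlapped an exon of another annotated gene.

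The selectivity filter of a potassium channel is a glycine-tyrosine-glycine signature in the pore, which is the stretch of Kir4.1 and Kir5.1 that lines the channel they form together. The 45 coding bases around it are shown for Kcnj16 because they hold the part of Kir5.1 that faces the potassium ions; the 9 bases of the signature are in capitals. The stretch is chr11:110886206-110886250, on the plus strand of NCBIM37 and inside a coding exon.
Kcnj16 pore: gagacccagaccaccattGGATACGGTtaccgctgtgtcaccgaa
Over the whole proteins of the 2 partners, translated from the annotated transcripts into 419 residues for Kir5.1 and 379 for Kir4.1, 129 of 355 aligned residues were identical, or 36.3%. Elsewhere in the genome, 1.82% of the 50-base windows of the Kcnj16 exons and 1.85% of those of Kcnj10 were found again.

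The bases upstream of the first listed start of the same genes are shown because their products form channels together. They are taken from RefSeq on GRCm38.p6, a later assembly than that of the files, at chr11:110967933-110968032 and chr1:172341110-172341209, both on the plus strand. Capitals mark a CCAAT box (CCAAT or ATTGG), a GC box (GGGCGG or CCGCCC) or a TATA box (TATAAA on the plus strand of the gene); the first capital of the Kcnj10 stretch is the end of a CCAAT box that begins before it.
Kcnj16 upstream: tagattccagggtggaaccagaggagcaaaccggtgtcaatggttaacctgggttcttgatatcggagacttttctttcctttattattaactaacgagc
Kcnj10 upstream: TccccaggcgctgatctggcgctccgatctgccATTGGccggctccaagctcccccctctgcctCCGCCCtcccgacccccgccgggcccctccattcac
In the 250 bases before its start Kcnj10 held 2 CCAAT boxes and 2 GC boxes, and the first of the 4 listed starts of Kcnj16, which is the one shown, held none of the 3 motifs. The second start of Kcnj16 held none either, the third held 1 TATA box, and the fourth held 1 CCAAT box and 1 GC box. Of the 32851 promoters in the table, 33.8% held a CCAAT box, 32.7% a GC box and 7.59% a TATA box in a window of that length. These matches describe the letters only.

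Hprt checked the labels. Its log2 ratio, HPRT knockdown minus control, was below 0 on all 9 days tested with a mean of -4.002 ± 0.89 (SD, n = 9), and -3.42 on day 6. Size factors relative to the median library ranged from 0.823 to 1.604, and totals of reads were not used here. The deposited values hold a ratio and no level, but they carry enough digits to solve for whole reads or fractions of a read. For each of the 6 genes the recovered reads returned the deposited differences in 27 of 27 tables. The largest gap was 8.15e-05 on the log2 scale. The reads were solved from these same tables, so the match describes the fit and does not test the level. Between libraries with measured reads, a log2 difference stays the same when all reads of a gene are multiplied by a constant. The absolute reads therefore rest on the assumption of whole reads or such fractions. Reads below are those recovered values, in which a fraction stands for reads counted in part, and scaled reads are reads divided by the size factor. The remaining table, which joins days 3 and 4 of the control line, was at odds with the others for most genes. In 1 library per group and day a Poisson interval covers counting error only, and in cultures of mixed cells a change in the number of cells of a type and a change of RNA per cell cannot be told apart.

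Ptgs1 was far above the control level in every knockdown library. In order of day, the control libraries held 25, 85.2, 34, 122.9, 29, 72.6, 17, 40, 42 and 48 reads of Ptgs1. The knockdown libraries of the same days held 3639, 902.7, 477, 1012, 879.8, 358.3, 774.9, 357, 432 and 708.3 reads. The knockdown library of day 0 was the highest, and after scaling the lowest knockdown library tested (367.2 scaled reads, day 10) stood above the highest control library (76.62, day 3). Every knockdown library stood above every control library in this way in 3.16% of the 13608 genes, and since Ptgs1 was chosen by its ratio nothing is read from that here.

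Against the control, Ptgs1 had a log2 ratio of 6.63 on day 0, lay between 3.46 and 5.33 on the other 8 days tested and was 2.37 on day 6. Its mean was 4.47 ± 1.06 (SD, n = 9), a mean fold of 22.1, which ranked 3 among the genes that passed the filter. Ptgs2, which encodes the inducible cyclooxygenase 2, did not show such a difference. The control libraries held from 39 to 228.7 reads of Ptgs2 over the 9 days and the knockdown libraries from 35 to 245.4, and its mean ratio was 0.27 ± 0.52 (SD, n = 9, adjusted p = 0.178). Per kilobase of exon, Ptgs1 stood at 0.235 to 0.684 times the level of Ptgs2 in the control libraries and at 3.92 to 111 times in the knockdown libraries of those 9 days. Thus Ptgs2 was the more abundant of the pair in every control library and Ptgs1 in every knockdown library.

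Cxcl15 was nearly absent from the control libraries and had more than 50 reads in most knockdown libraries. Control libraries held 1, 2, 0, 20, 0, 41.9, 3, 5, 13 and 14.6 reads from day 0 to day 14, where 0 stands for 0 or 1 read. The knockdown libraries held 64.9, 63.1, 5, 55.5, 78.7, 107.2, 460.2, 102.4, 143.8 and 137.3 reads. The highest value was that of the knockdown library of day 8, and the 5 reads of day 2 (95% Poisson interval 1.6 to 11.7) were the only knockdown value of the 9 days that fell within the range of the control libraries.

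Its log2 ratio ranged from 2.28 on day 3 to 7.08 on day 8, was 1.42 on day 6 and had a mean of 4.57 ± 1.67 (SD, n = 9). Among the deposited ratios its mean ranked 2, after that of Nkx2-1, a transcription factor gene at 5.25. The deposited log2 levels had a floor at 0, so on days 2 and 4, when the control library held 0 or 1 read, the ratio compared the knockdown library with that floor and not with a measured level. A count of 0 allows up to 3 reads. From recovered reads, with libraries at 0 or 1 read set to 3, the mean of Cxcl15 was 4.24 and lay below that of Ptgs1 (4.47). The control library of day 0 kept its 1 read, so the order of the 2 genes depends on that set value. Of 9 markers of lung epithelium 1 passed the filter, Abca3, a lipid transporter gene with a ratio of 1.18 ± 0.17 (SD, n = 9). The 7 markers with recovered levels summed to between 1770 and 3290 scaled reads in the control line and between 4410 and 7040 in the knockdown line. Nearly all of this was Abca3, whose level was recovered only approximately, and the other 6 markers together summed to at most 4.56 scaled reads in a control library and at most 10.2 in a knockdown library. The part of lung epithelium in the ratio of Cxcl15 was not tested.

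Slc15a5 exceeded the control on 9 of 9 days, from a knockdown level that fell through the course. The control libraries held 5.8, 0, 2, 10, 0, 2, 3, 2, 6 and 0 reads, again with 0 for 0 or 1 read. The knockdown libraries held 294.4, 55, 28, 42, 40.6, 21.3, 49, 21.3, 13 and 9 reads. Day 0 was the highest of the knockdown libraries, and no control library reached the lowest knockdown level after scaling (6.234 against 9.292 scaled reads). Such a separation was found in 3.16% of the 13608 genes, and since Slc15a5 was chosen by its ratio nothing is read from it. Before scaling, the 10 control reads of day 3 exceeded the 9 knockdown reads of day 14.

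The log2 ratio of Slc15a5 was highest on day 1 at 5.85 and lowest on day 12 at 1.82, with a mean of 3.99 ± 1.298 (SD, n = 9); on day 6 it was 3.48. Day 6 thus lay inside the range of the other days for this gene. On days 1, 4 and 14 the control library held 0 or 1 read and the ratio was again taken against the floor.

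Kcnj16 had its most reads early, with the knockdown line above the control on each of the 9 days tested. The control libraries held 17, 84, 57, 24, 5, 83, 1, 3, 6 and 9 reads. The knockdown libraries held 286, 665, 336, 168.9, 112.9, 37, 52, 69, 64 and 46 reads. Levels were highest on day 1 in the knockdown line, and in the control line on days 1 and 6; late knockdown libraries overlapped with early control libraries, so that 5 of 9 knockdown libraries stood above all controls.

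For Kcnj16 the log2 ratio lay between 2.56 on day 2 and 5.52 on day 8, with a mean of 3.87 ± 1.03 (SD, n = 9), but it was -1.10 on day 6. The control library of day 8 held 1 read of Kcnj16 (95% Poisson interval 0 to 5.6) and those of days 4, 10, 12 and 14 held 3 to 9, so the sizes of the ratios on these days, the highest among them, were loosely set. Its mean ratio of 3.873 ranked 5, just above those of Enpp6 (3.868) and Zfp488 (3.79), which were not selected.

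Kcnj10 had the highest level of the 6 genes in the control line, with a median of 30.1 scaled reads per kilobase of exon over 9 days against 8.62 for Ptgs1, the next gene. In the knockdown line its median was 317, above 188 for Ptgs1. The control libraries held 280, 645, 282, 261, 126, 614, 132, 183, 220 and 208.4 reads. The knockdown libraries held 737, 1748, 1199, 2056, 681, 603, 873.7, 3012, 1500 and 2930 reads. The knockdown libraries of days 10 and 14 were the highest, and after scaling 8 of the 9 knockdown libraries lay above all 9 control libraries; that of day 0 lay within the range of the controls.

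Day by day the log2 ratio of Kcnj10 was 0.84, 1.57, 2.09, 3.79 and 2.78 up to day 4, and 2.54, 4.34, 3.48 and 4.19 from day 8. It was higher in the knockdown line on 9 of 9 days, as were 14.1% of all genes tested. The mean of 2.85 ± 1.21 (SD, n = 9) passed the limma test over days (SE 0.36, adjusted p = 0.000243), as did 26.2% of the genes in the direction of higher levels in the knockdown line. The exact two-sided sign-flip permutation test over the 9 days gave p = 0.00390625, the smallest it can give. The mean ranked 41 among the 13608 genes.

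The difference between the lines in Kcnj10 widened with time. The ratio rose by 0.18 ± 0.050 log2 units per day (SE, adjusted p = 0.0412, limma over 9 days), a test that 7.43% of genes passed in the rising direction. This call was lost without any of days 0, 1, 2, 4, 10, 12 and 14, where the slope ranged from 0.1485 to 0.2032 and the highest adjusted p was 0.109, and when day 6 was kept (adjusted p = 0.152). The mean ratio was 2.21 over days 0 to 4 and 3.64 over days 8 to 14.

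**Figure D1:**
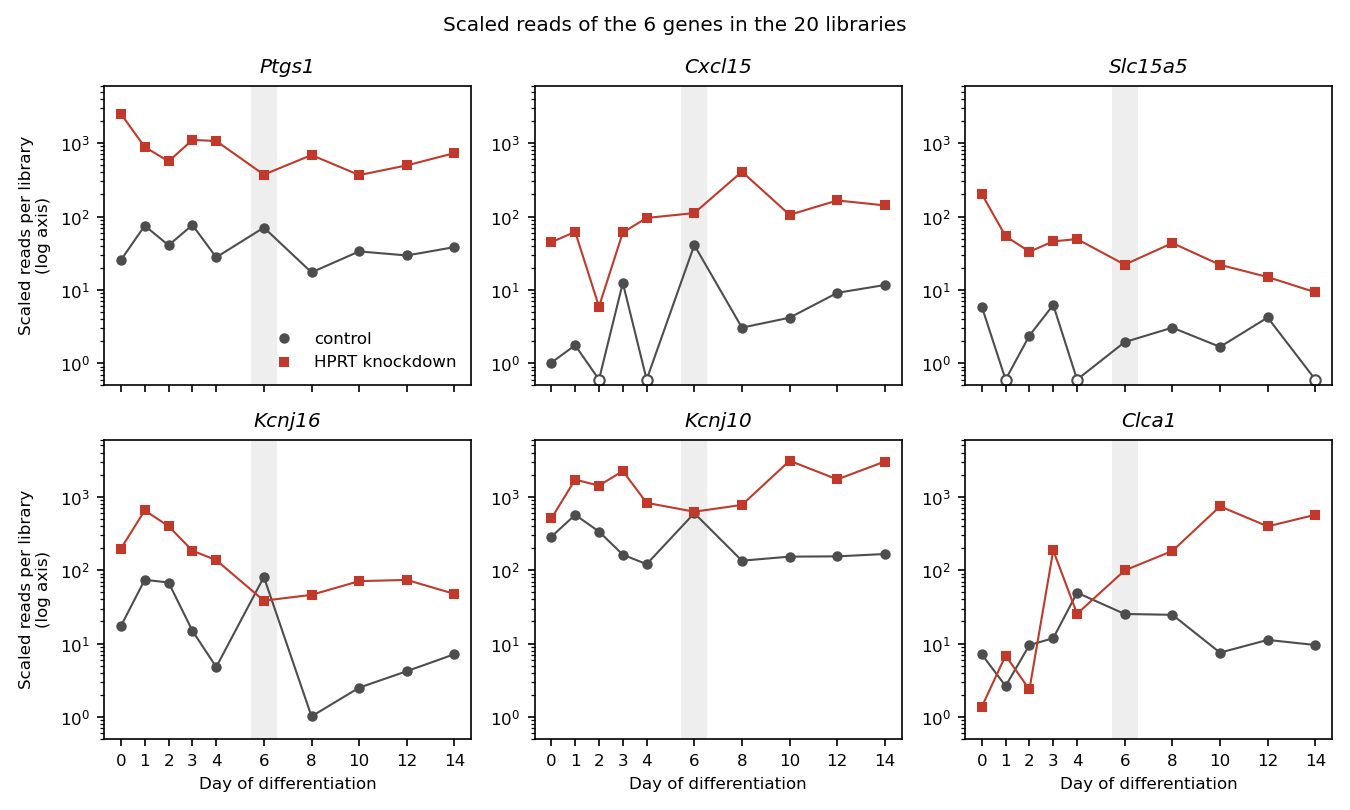
Scaled reads (reads divided by the size factor of the library, log axis) of each gene by day of differentiation, with 1 point per library; gray circles are the control line, red squares the HPRT knockdown line, open circles mark libraries with 0 or 1 read drawn at the foot of the axis, and gray shading marks day 6. Ptgs1 and Slc15a5 in the knockdown line stay above the control on every day, and Kcnj16 crosses on day 6 (37 against 83 reads). Clca1 separates from day 6 onward after crossing on days 0, 2 and 4, where days 0 and 2 rest on 2 knockdown reads each.

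Clca1 had few reads in both lines at the start and at least 206.1 in the knockdown line from day 8. The control libraries held 7, 3, 8, 19, 51.4, 26, 24.2, 9, 16 and 12 reads. The knockdown libraries held 2, 7, 2, 170.5, 21, 95.7, 206.1, 720.7, 343.6 and 550.5 reads. The knockdown library lay below the control on days 0, 2 and 4 and above it on the other 7 days, with day 10 the highest. The 170.5 reads of day 3 stood between 2 reads on day 2 and 21 on day 4. On days 0 and 2 the 2 knockdown reads had a 95% Poisson interval of 0.2 to 7.2. The control reads of those days had intervals of 2.8 to 14.4 and 3.5 to 15.8. These overlap, as do those of day 1, so the order of the lines on days 0 to 2 was loosely set.

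Its log2 ratio was -2.36, 1.35, -2.0, 3.97 and -0.95 on days 0 to 4, 1.95 on day 6, and 2.91, 6.63, 5.13 and 5.90 from day 8. The control libraries of days 10, 12 and 14 held 9, 16 and 12 reads, so the sizes of the ratios on those days were loosely set. The mean of 2.29 ± 3.44 (SD, n = 9) was thus the average of 0.0031 over days 0 to 4 and 5.14 over days 8 to 14. Clca1 was selected on its slope in the knockdown line, 0.59 log2 units per day, which ranked 2 among all genes, above Gpr37l1 with 0.58.

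Reads of Clca1 may be shared with its paralogue Clca2 (deposited symbol, Gene ID 80797), which lies 35582 bases away. Of the 3213 windows of 50 bases in the Clca1 exons, 653 (20.3%) also occurred in Clca2, and how the authors counted reads that match several places is not given in the sources used here. Clca2 did not pass the filter, and it held 0 to 6 reads in the control libraries of the 9 days. In the knockdown line it held 15, 62, 15 and 97 reads on days 8, 10, 12 and 14, which were the days on which Clca1 was high too. Clca1 had the more reads on each of these days, and what share of the reads of either gene came from the other was not tested.

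**Figure D2:**
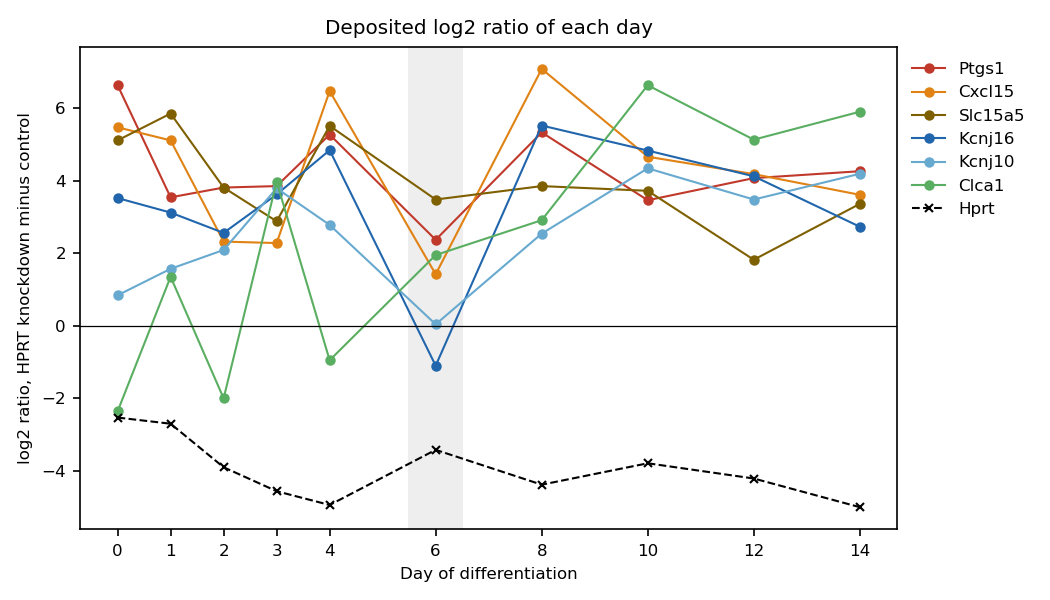
Deposited log2 ratio, HPRT knockdown minus control, of each gene by day of differentiation, with 1 point per day and the targeted gene Hprt as a dashed line; gray shading marks day 6. Ptgs1, Cxcl15 and Slc15a5 stay above 0 on all 10 days, Kcnj16 falls to -1.10 on day 6, Kcnj10 climbs from 0.84 to 4.19, and Clca1 moves from -2.36 to 5.90.

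Day 6 set the genes apart from each other. The control library of day 6 held 83 reads of Kcnj16 between 5 on day 4 and 1 on day 8, and 614 reads of Kcnj10 between 126 and 132. It held 41.9 reads of Cxcl15 between 0 or 1 and 3, and 72.6 of Ptgs1 between 29 and 17. For these 4 genes the control value of day 6 thus exceeded both neighboring days, whereas Slc15a5 (2 reads) and Clca1 (26 reads) lay between their neighbors. After scaling, the knockdown library of day 6 was the lowest of that line for Kcnj16 (38.45 scaled reads), whereas for Kcnj10 it held 626.6 and lay above that of day 0 (507.2). Why the day differed was not tested.

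The 2 channel partners did not keep a fixed proportion. Per kilobase of exon, Kcnj10 stood above Kcnj16 in each of the 20 libraries. In the knockdown line the ratio of Kcnj10 to Kcnj16 was 1.88, 1.91 and 2.6 over days 0 to 2, and 31.8, 17.1 and 46.4 on days 10, 12 and 14. Control libraries gave 12 at day 0, 3.6 at day 2, 96.1 at day 8 and 16.9 at day 14, where the value of day 8 rests on 1 read of Kcnj16. In both lines the lead of Kcnj10 was thus larger on each day from day 8 than on days 0 to 2. In the control line days 10, 12 and 14 rest on 3, 6 and 9 reads of Kcnj16, so that order is loosely set there.

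**Figure D3:**
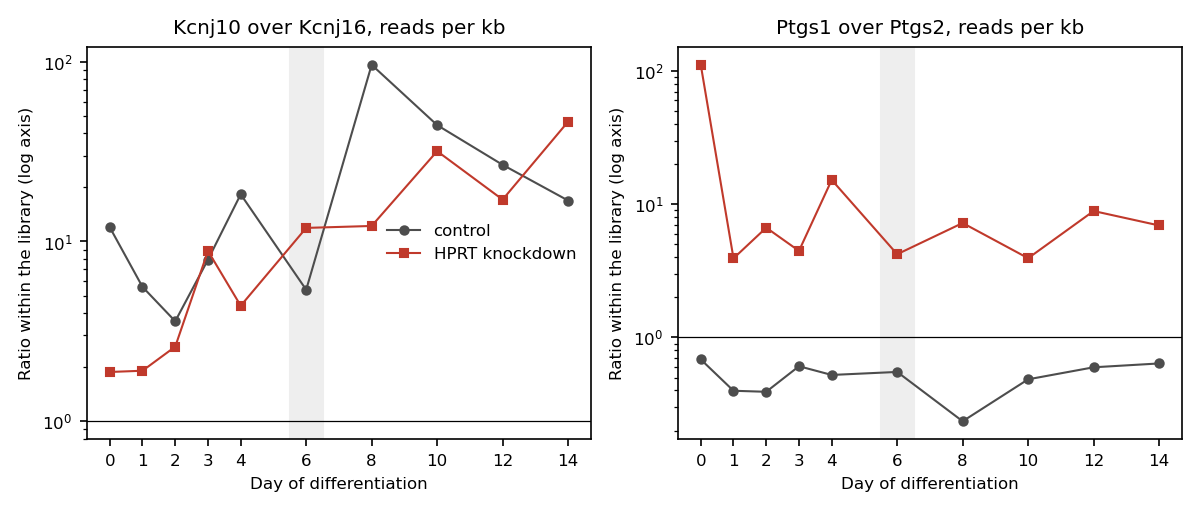
Ratio of levels within each library, in scaled reads per kilobase of exon (log axis), by day of differentiation for Kcnj10 over Kcnj16 and for Ptgs1 over Ptgs2; gray circles are the control line, red squares the HPRT knockdown line, the horizontal line marks equal levels and gray shading marks day 6. Ptgs1 over Ptgs2 lies below 1 in every control library and at 3.92 or above in the knockdown libraries of the 9 days tested, and Kcnj10 over Kcnj16 grows from 1.88 to 46.4 in the knockdown line.

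The slopes within each line were measured on values joined from the tables of consecutive days. In the control line these include the step from day 3 to 4 that was at odds with the other data. In the control line the limma test called neither Ptgs1 (-0.079 ± 0.050 log2 units per day, SE) nor Kcnj10 (-0.082 ± 0.039), where 43.6% of all genes were called in either direction; at an unadjusted p under 0.05 it also called 0 of these 2 genes, against 51.6% of all genes. The slopes of the other 4 genes rest on few control reads, on floor values for Cxcl15 and Slc15a5, and are given as values from which no call is read. They were -0.22 ± 0.097 log2 units per day for Kcnj16 (SE), -0.16 ± 0.083 for Slc15a5, -0.015 ± 0.067 for Clca1 and 0.14 ± 0.087 for Cxcl15. With the step from day 3 to 4 taken through the knockdown line, an alternative chosen after seeing the data, the control slopes moved. They became -0.049 for Slc15a5, -0.26 for Kcnj16, -0.040 for Ptgs1, -0.085 for Kcnj10, 0.045 for Clca1 and 0.24 for Cxcl15.

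In the knockdown line Slc15a5 and Kcnj16 fell with time, which 5.53% of all genes did. These knockdown libraries also entered the ratio by which both genes were chosen, although the slope itself did not. The adjusted p-values therefore belong to chosen genes, and no claim beyond these libraries is read from them. The slope was -0.22 ± 0.043 log2 units per day for Slc15a5 (SE, adjusted p = 0.0187, limma) and -0.22 ± 0.048 for Kcnj16 (adjusted p = 0.0239). Ptgs1 (-0.10 ± 0.041, adjusted p = 0.123), Cxcl15 (0.20 ± 0.088, adjusted p = 0.158) and Kcnj10 (0.094 ± 0.051, adjusted p = 0.23) did not pass. The call for Slc15a5 was lost without day 12 or day 14, the latter with the highest adjusted p of 0.103. The call for Kcnj16 was lost without day 2, 10, 12 or 14, the highest adjusted p being 0.0948 without day 14, and with day on a log scale (adjusted p = 0.0862).

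**Figure D4:**
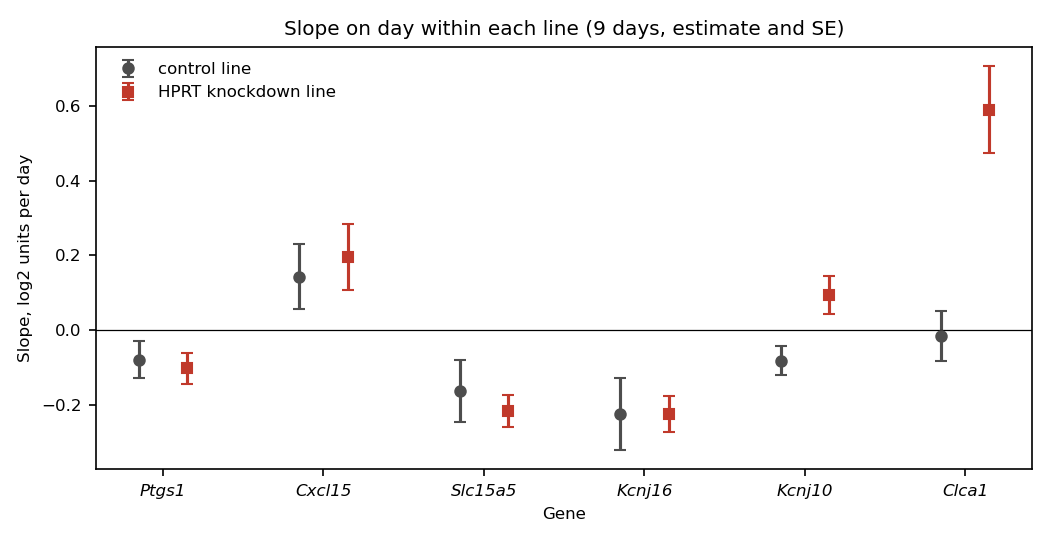
Slope on day within each line in log2 units per day, for the 9 days without day 6; points are estimates, bars are standard errors, gray circles are the control line and red squares the HPRT knockdown line. Kcnj16 has -0.22 in both lines, Slc15a5 has -0.16 in the control line and -0.22 in the knockdown line, Kcnj10 has -0.082 in the control line and 0.094 in the knockdown line, and Clca1 has -0.015 against 0.59. The control slopes include the step from day 3 to 4 that was at odds with the other data. With that step taken through the knockdown line, the control slope is -0.26 for Kcnj16 and -0.049 for Slc15a5.

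In the rest of the prostaglandin and leukotriene pathway calls went in both directions, as they did over all genes. Of 36 further genes of the pathway 22 passed the filter. Of these 3 were higher in the knockdown line (as were 26.2% of all genes), 7 were lower (26.3% of all genes) and 12 were not called. The share lower is close to that of all genes, and nothing about the pathway is read from these counts. The median of their mean log2 ratios was 0.032, against 0.0056 over all genes. Higher were Ptgds (2.74 ± 2.78, SD, n = 9), which makes prostaglandin D2, the reductase gene Ptgr2 (0.83 ± 0.27) and the prostaglandin F receptor gene Ptgfr (0.52 ± 0.38). The lowest mean ratios were those of the prostacyclin synthase gene Ptgis (-1.37 ± 0.99), the aldose reductase-like gene Akr1b8 (-1.32 ± 0.60) and the prostaglandin E receptor gene Ptger4 (-1.24 ± 0.70).

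The other Kir channel genes showed no called difference. Of 13 further Kir genes 6 passed the filter, and limma called 0 of them at an adjusted p under 0.05, which 26.2% of all genes passed as higher and 26.3% as lower. At an unadjusted p under 0.05 the count was also 0, against 58.7% of all genes, and their median ratio was -0.062. Kcnj2, the chromosomal neighbor of Kcnj16 and a strong inward rectifier, held 52 to 334 reads in the control line and 71 to 218 in the knockdown line over the 9 days, with a mean ratio of 0.13 ± 0.81 (SD, n = 9, adjusted p = 0.686). Kcnj9, the neighbor of Kcnj10, held at most 25.1 reads in the libraries of those days and did not pass the filter.

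Among 21 further genes for chemokines of the CXC class and their receptors 7 passed the filter, with 0 higher and 2 lower in the knockdown line; 26.3% of all genes were lower, so that 2 of 7 is close to the share of all genes. Cxcl5, which encodes a neutrophil attractant, had a ratio of -1.63 ± 1.71 (SD, n = 9), and Cxcr4, the receptor of Cxcl12, had -0.86 ± 0.45. The genes beside Cxcl15 on chromosome 5 were not called: Cxcl1 had -0.45 ± 1.4 (SD, n = 9) and Cxcl3 did not pass the filter. Of the 12 nearest protein-coding neighbors of the 6 genes, 8 passed the filter and 2 were called, 1 higher and 1 lower. Over all genes 26.2% were higher and 26.3% lower, so nothing about neighbors is read from the 2 calls. The called neighbors were Mgst1, 60400 bases from Slc15a5 and a microsomal glutathione transferase gene, with 1.20 ± 0.33 (SD, n = 9, adjusted p = 5.34e-05, limma), and the kinase gene Map2k6, 442511 bases from Kcnj16, with -0.38 ± 0.14 (adjusted p = 0.00103). In the small family of Slc15a5, Slc15a2, a peptide transporter of brain and kidney, was higher in the knockdown line on 9 of 9 days (0.96 ± 0.46, adjusted p = 0.000559), and the lysosomal histidine transporter gene Slc15a4 had 0.12 ± 0.36 without a call. None of the 6 other genes of the Clca family passed the filter. With no filter applied 1 of the 6, Clca4, was called lower (-1.77, adjusted p = 0.0313, limma), as were 20.8% of all genes in that fit. Clca4 is the deposited symbol of Gene ID 229927, and the symbols of this family are those of the deposited data.

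Genes for potassium and glutamate clearance by glia were mostly higher in the knockdown line, like Kcnj10. All 16 passed the filter, 11 were higher in the knockdown line (as were 26.2% of all genes), 1 was lower (26.3% of all genes), and their median ratio was 0.71. Among the higher genes were Atp1b2 (2.19 ± 0.57, SD, n = 9), a subunit of the glial sodium-potassium pump, and the water channel gene Aqp4 (1.35 ± 0.95); the gap junction gene Gja1 was lower (-0.66 ± 0.38). Against the same shares of 26.2% and 26.3% over all genes, 7 of 9 markers of astrocytes and radial glia were higher with 1 lower (median 1.20), as were 4 of 8 oligodendrocyte markers with 0 lower (median 2.35), and 4 of 5 neuron markers were lower with 0 higher (median -1.88). The relative summed level of the oligodendrocyte markers, with the common factor of 1 gene only approximate and 1 gene not recovered, ranged from 3950 to 12600 scaled reads in the control line and from 8340 to 68900 in the knockdown line, and that of the astrocyte markers, 8 of 9 approximate, from 18600 to 46200 and from 23200 to 61700. The part of glial cell number in the ratios of Kcnj10 and Kcnj16 was not tested.

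**Figure D5:**
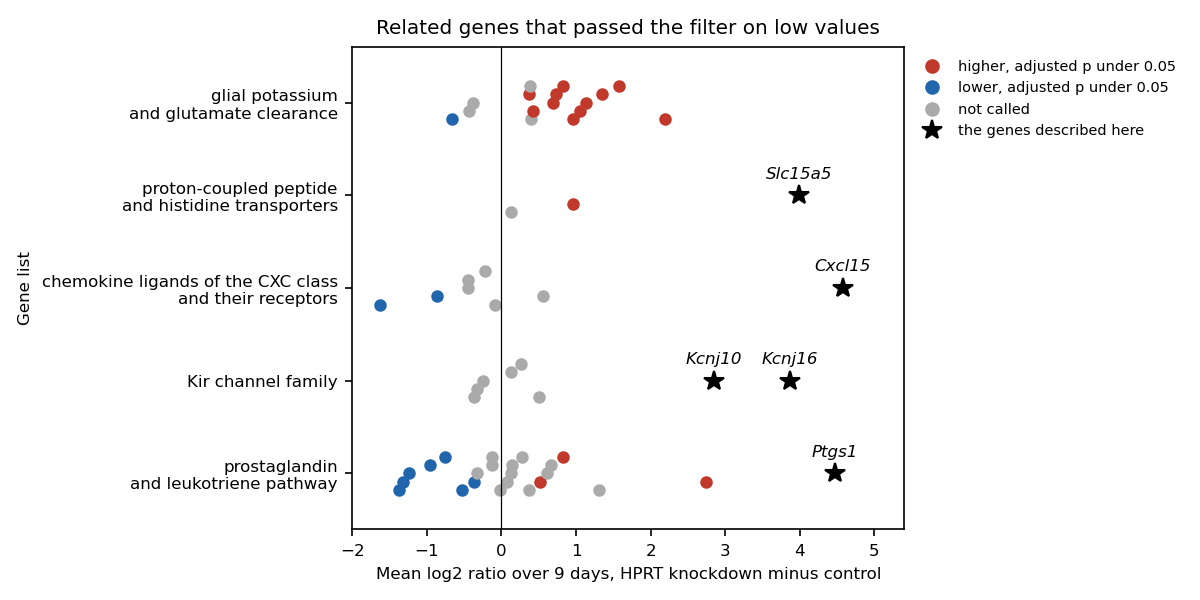
Mean log2 ratio over 9 days, HPRT knockdown minus control, of the genes of 5 related lists that passed the filter on low values, with 1 point per gene; red points were higher and blue points lower at an adjusted p under 0.05, gray points were not called, and stars are Ptgs1, Cxcl15, Slc15a5, Kcnj16 and Kcnj10. The stars lie at 2.85 or above, to the right of every other gene of their own list. The stars other than Kcnj10 mark genes chosen by a high ratio, so their place follows from that choice.

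Markers of microglia, in which Ptgs1 is known to be expressed, were at or near 0. None of the 10 passed the filter, and Cx3cr1, C1qa, C1qb, C1qc and Tyrobp had at most 1 read in every library. The scaled reads of all 10 summed to 4.08 to 11.9 in the control libraries and 2.37 to 38.2 in the knockdown libraries. Of 5 endothelium markers tested 0 were higher and 2 were lower, against 26.3% of all genes lower, with summed levels of 257 to 802 scaled reads in the control line and 181 to 678 in the knockdown line. The part of either cell type in the ratio of Ptgs1 was not tested.

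The course of the ratio over the 10 days was compared with that of every gene that passed the filter, as a description over points that share libraries and depth. The r compares courses and not heights, and the highest values among so many genes are high by that choice. Closest to Ptgs1 were Nkx2-1 (Pearson r = 0.986), Pde1a (0.926) and Fam179b (0.921). Closest to Cxcl15 were Cd82 (0.977), Il33 (0.967) and Tmem168 (0.937), and closest to Slc15a5 were Doc2b (0.903), Celf4 (0.9) and Ss18l1 (0.897). Pcdh7 (0.97), Lamp2 (0.965) and Tmbim1 (0.963) came closest to Kcnj16, Plekhb1 (0.981), Tmem167b (0.975) and Slc38a10 (0.97) to Kcnj10, and Bche (0.976), Slc6a15 (0.967) and Gjc3 (0.964) to Clca1. Not all of these genes were higher in the knockdown line. The mean log2 ratio was below 0 for Celf4 (-1.55), Ss18l1 (-0.408), Tmem168 (-0.329), Doc2b (-0.127) and Fam179b (-0.0815). It was above 0 for all the others, up to 5.25 for Nkx2-1. Among the 6 genes themselves r ranged from -0.625 for Slc15a5 with Clca1 to 0.773 for Cxcl15 with Kcnj16. For Kcnj16 with Kcnj10 it was 0.604 over 10 days but 0.194 without day 6, when both ratios were at their lowest. Without day 6 the 3 genes closest to Kcnj16 had r between 0.874 and 0.889, and those closest to the other 5 genes had between 0.899 and 0.981.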

How the data were processed

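Per the labels and the study's methods, RNA of 20 libraries was sequenced on an Illumina instrument, aligned with CASAVA 1.8.2 (ELAND) to mm9 and normalized with DESeq. The authors deposited 28 tables of 2 libraries as log2 values centred on the mean of the pair, floored at 0, so each table gives a log2 ratio; 10 pair the lines within a day and 9 per line pair consecutive days. The members and lists were chosen with earlier results of these data known. The design foresaw levels and a pseudocount; since values were log2 ratios, the filter was read from the rounding step of the single-precision values and no pseudocount could be varied. Reads were recovered by solving the tables for whole reads or fractions in 49ths, which was tested on simulated data. The result of that test on simulated data is not given here. Read totals and sequencing lanes were not used here. Ratios and slopes were tested with limma 3.58.1 in R 4.3.3 over 13608 genes with Benjamini-Hochberg adjustment at 0.05; slopes used values joined over tables that were normalized separately. The day was the pair: deviations of paired libraries correlated across genes on 8 of 9 days (r at least 0.135, -0.027 on day 0). The genes named were the 6 members, the 3 highest and 3 lowest called genes of each related list, Ptgs2, Kcnj2 and Kcnj9, the 3 closest courses per member and Hprt; Nkx2-1, Enpp6, Zfp488, Gpr37l1, Clca2, Cxcl1, Cxcl3, Slc15a4, Clca4, Mgst1, Map2k6 and microglia markers were added after their values were seen. Some items that this rule names are not reported here. Alternatives were other filters, day 6 kept, each day left out, log time, centring, an unpaired fit, a sign-flip test and, chosen after seeing the data, recovered reads, another day 3 to 4 step and likeness without day 6.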

Additional observations from a re-analysis of the deposited data

Results flagged for a closer look

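The log2 ratio of Kcnj16 on day 6, -1.098, was set apart by its gap to the next lowest day, which had 2.56. The level of Cxcl15 in the knockdown library of day 2, 2.566 on the log2 scale of scaled reads, lay far below the other 9 knockdown libraries and rests on 5 reads. These were 2 flags among 18 groups of 10 days (the ratio and the level in each line of the 6 genes), and chance flags about 1 in 20 groups. The time course of Kcnj10 differed between the lines by the slope of its ratio, 0.1843 log2 units per day (adjusted p = 0.0412).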

How the results depend on the processing

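The day served as the pair in the tests of the ratio; with no replicate block, in an unpaired fit, the mean ratio of Kcnj10 kept its value of 2.847 (adjusted p = 4.01e-05), and no alternative, the sign-flip test included, ended its call (2.66 to 3.097 without single days, 2.566 with day 6). The slope of the Kcnj10 ratio, 0.1843, missed the threshold without a filter (0.1843, adjusted p = 0.0631) and with day 6 kept (0.1843, adjusted p = 0.152; day 6 is the mean of the days and moves no slope), and ranged from 0.1485 to 0.2095 without single days. Without single days, 0 to 1 of the 6 genes passed in the control line, where 4 of them rest on few reads and no call is read, and 0 to 2 of the 5 in the knockdown line. Of all 13608 genes, 2031 to 2869 rose and 2590 to 3398 fell in the control line in those fits. In the knockdown line 113 to 1423 of them rose and 58 to 1536 fell. In the control line 1 gene, Cxcl15, passed as rising with the step from day 3 to 4 through the knockdown tables, an alternative chosen after seeing the data. So did 2781 of the 13608 genes, and nothing is read from the call of Cxcl15, which rests on few control reads. In the knockdown line 0 of the 2 genes left by a filter at 8 passed, where 728 of 8248 genes rose and 626 fell. On a log time scale 1 of the 5 genes (Slc15a5) passed as falling, as did 47 of the 13608 genes. The control slope of Clca1, which no setting called, changed sign, with 0.07787 on log time, 0.04522 through the knockdown tables and -0.06931 to 0.007502 without single days. The mean ratios of the 5 selected genes moved by less than their SD over days under day 6 kept, centring, single days left out and recovered reads without the floor. Over all genes, falling slopes in the knockdown line numbered 752, and between 47 on log time and 1536 without day 0; rising slopes of the ratio numbered 1011, and 273 without day 12. A filter at 8 tested 8248 genes in place of 13608, with 2361 mean ratios higher in place of 3562 and 2417 lower in place of 3579. Of 7 prostaglandin genes 1 was higher and 3 lower, in place of 3 and 7 of 22. Of 3 CXC genes 1 was lower, in place of 2 of 7. Fewer genes were tested under that filter, so the smaller counts are not read as lost calls. With no filter Clca4 was called lower (adjusted p = 0.0313). The causes were not tested. Depth limits Cxcl15 and Slc15a5 in the control line. It also limits Clca1 on days 0 to 3, 10, 12 and 14, Kcnj16 on days 0, 4, 8, 10, 12 and 14, and Ptgs1 on day 8. There, over the 9 days tested, control counts of 0 to 20 reads set the ratios. No other pseudocount could be tried.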
